A study of Drosophila melanogaster with 3 samples.

Results

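The regions described here are 844 summits of chromatin immunoprecipitation sequencing (ChIP-seq) peaks at the promoters of divergent gene pairs, out of 9459 summits in all (8.92%). A divergent pair was taken as a protein-coding gene on the minus strand and one on the plus strand whose transcription start sites (TSSs) stood head to head, the minus-strand TSS to the left, no more than 1000 bp apart. The 5'-most TSS of each gene was used. A summit was a member when it lay within 500 bp of either TSS of such a pair, so its place near a start site is the rule and not a finding. The annotation held 2435 such gene pairs at 2294 distinct pairs of start sites, with 4648 of the 13945 protein-coding genes (33.3%). A further 1411 summits lay within 500 bp of the 5'-most TSS of a coding gene outside these pairs, and are called other coding promoters below, while 7204 summits lay at neither.

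The experiment mapped the binding of CG2678 in Drosophila melanogaster. The embryos came from a transgenic line that stably expresses CG2678 with green fluorescent protein (GFP) at its C-terminus, were collected as whole organisms of pooled sex at 0 to 24 h of age, and gave 3 biological replicates of 1 group, so no genotype, age or treatment was compared. An antibody against GFP was used on chromatin sonicated to 200 to 800 bp. The authors called peaks in each replicate and in the pooled replicates, and kept 9459 pooled peaks whose ranks held across replicates by the irreproducible discovery rate (the IDR list). A whole embryo mixes many cell types and stages, so strong binding in few cells and weak binding in many cannot be told apart, and peak lists give no expression level with which to check the tissue.

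Head-to-head genes are common in the compact fly genome, and many of them serve functions that every cell needs. The start sites of a close pair share one stretch of open, nucleosome-poor DNA from which both genes are transcribed, and the factors DREF and M1BP and the boundary protein BEAF-32 are known from such promoters. CG2678, named kipf (Kipferl) in the annotation, is a zinc finger protein known from the ovary, where it brings the heterochromatin protein Rhino to loci that give rise to piRNAs.

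The stretch between both start sites is printed for 8 pairs, because the summit of each lay inside it. They are the strongest members matched in all 3 replicates among those with the summit between start sites 60 to 300 bp apart, leaving out 1 chromosome arm whose sequence is not printed here. Each run begins at the base after the minus-strand TSS, ends at the base before the plus-strand TSS and is the plus strand of the RefSeq copy of dm6, 5′ to 3′. Capitals mark unbroken runs of at least 10 bases made of A and T alone. No exon was annotated between the start sites in any of them.
Art3–mRpS10, chr3R:15229409-15229664: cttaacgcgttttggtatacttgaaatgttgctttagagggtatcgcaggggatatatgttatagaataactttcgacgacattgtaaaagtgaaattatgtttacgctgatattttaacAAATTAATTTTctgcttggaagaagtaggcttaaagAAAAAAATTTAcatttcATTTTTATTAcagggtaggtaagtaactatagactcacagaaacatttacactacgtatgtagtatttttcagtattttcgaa
CG13390–CG17294, chr2L:8376798-8377034: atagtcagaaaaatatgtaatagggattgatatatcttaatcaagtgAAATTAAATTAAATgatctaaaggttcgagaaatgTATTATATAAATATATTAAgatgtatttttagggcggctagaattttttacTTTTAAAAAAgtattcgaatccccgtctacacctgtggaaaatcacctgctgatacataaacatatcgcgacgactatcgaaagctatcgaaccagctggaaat
Tcs5–CHMP2B, chr3L:5139396-5139618: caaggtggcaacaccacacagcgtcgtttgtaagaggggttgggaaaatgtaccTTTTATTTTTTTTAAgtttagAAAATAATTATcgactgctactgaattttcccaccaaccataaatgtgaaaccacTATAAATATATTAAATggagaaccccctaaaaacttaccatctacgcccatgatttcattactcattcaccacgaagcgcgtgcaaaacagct
Lon–PIG-F, chr3L:19612200-19612454: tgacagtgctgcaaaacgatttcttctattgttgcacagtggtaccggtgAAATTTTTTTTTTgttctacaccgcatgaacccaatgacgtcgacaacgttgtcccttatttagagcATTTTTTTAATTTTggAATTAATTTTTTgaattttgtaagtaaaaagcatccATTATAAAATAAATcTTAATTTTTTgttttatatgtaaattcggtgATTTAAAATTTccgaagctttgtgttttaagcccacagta
Cp190–CG4338, chr3R:15275242-15275521: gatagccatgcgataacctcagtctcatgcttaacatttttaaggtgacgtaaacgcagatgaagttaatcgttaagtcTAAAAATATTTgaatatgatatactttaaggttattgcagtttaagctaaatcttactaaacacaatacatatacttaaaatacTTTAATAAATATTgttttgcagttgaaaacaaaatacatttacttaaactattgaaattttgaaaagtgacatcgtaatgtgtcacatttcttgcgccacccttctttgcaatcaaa
Mkk4–SLIRP2, chr3R:8650797-8651083: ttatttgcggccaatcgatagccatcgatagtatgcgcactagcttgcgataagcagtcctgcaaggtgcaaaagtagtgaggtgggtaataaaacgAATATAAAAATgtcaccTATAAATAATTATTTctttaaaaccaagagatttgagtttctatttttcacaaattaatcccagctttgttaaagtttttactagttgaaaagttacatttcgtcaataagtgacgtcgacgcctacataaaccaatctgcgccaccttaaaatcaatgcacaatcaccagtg
CG7601–CIA30, chr3R:29736746-29736964: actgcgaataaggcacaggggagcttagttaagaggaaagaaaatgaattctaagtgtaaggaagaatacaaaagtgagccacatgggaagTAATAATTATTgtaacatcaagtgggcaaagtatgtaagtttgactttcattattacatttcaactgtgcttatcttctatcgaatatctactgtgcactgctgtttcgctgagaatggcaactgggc
brm–Arl1, chr3L:15982870-15983134: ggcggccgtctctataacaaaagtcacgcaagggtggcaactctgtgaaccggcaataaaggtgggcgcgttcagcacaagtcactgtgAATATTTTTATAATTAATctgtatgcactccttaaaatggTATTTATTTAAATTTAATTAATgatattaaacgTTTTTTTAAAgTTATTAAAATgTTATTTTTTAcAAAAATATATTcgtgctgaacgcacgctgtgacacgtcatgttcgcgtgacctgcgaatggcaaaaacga

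These 8 stretches had GC contents from 28.9% (Cp190–CG4338) to 38.1% (Tcs5–CHMP2B). Every one held at least 1 run of A and T, and the longest run in a stretch was from 11 bases, in Art3–mRpS10 and CG7601–CIA30, to 22 bases in brm–Arl1. The summit fell at base 128 of 256 in Art3–mRpS10, 0.5 bp from the midpoint of the start sites, and at base 87 of 237 in CG13390–CG17294, 32 bp from it. In the other 6 stretches it was 4 to 12 bp from the midpoint. In 4 of the 8 the summit lay within a capital run, namely in Art3–mRpS10, CG13390–CG17294, Lon–PIG-F and brm–Arl1. The genes are of many kinds. Art3 encodes an arginine methyltransferase and mRpS10 a protein of the small mitochondrial ribosomal subunit. Lon is a mitochondrial protease, PIG-F acts in the synthesis of glycosylphosphatidylinositol anchors, and CHMP2B belongs to the ESCRT-III membrane remodelling complex. Cp190 is an insulator protein, Mkk4 a stress-activated kinase kinase, CIA30 an assembly factor of respiratory complex I, brm the ATPase of the fly SWI/SNF remodeller and Arl1 a small GTPase of the Golgi.

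The strongest members lay among the strongest peaks of the whole list. The authors' signal value is used here only to rank peaks within a list, since values of different lists are not on one scale. The first was at Ugalt–eIF2Bbeta (X, 2703513 to 2704183), which encode a Golgi transporter of UDP-galactose and a subunit of the exchange factor of translation initiation factor eIF2. Its signal was 19140 and its rank 3 of 9459, and it ranked 2, 3 and 4 in replicates 1, 2 and 3. The summit was 29 bp upstream of Ugalt and 690 bp upstream of eIF2Bbeta, so in a pair 719 bp wide it stood at one end.

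The next member was at mRpL41–CG8079 (2R, 15217494 to 15218104), mRpL41 being a gene of the large mitochondrial ribosomal subunit, where the signal was 16671 and the replicates ranked it 4, 8 and 2. Art3–mRpS10 (3R, 15229278 to 15229805) had a signal of 14716 and ranked 6, 11 and 8. CG13390–CG17294 (2L, 8376589 to 8377182) had a signal of 12022 and ranked 17, 18 and 13. The replicates placed these summits almost at the same base, the largest shift from the IDR summit over the 4 pairs being 10 bp, for Ugalt–eIF2Bbeta in replicate 3.

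The other 8 of the 12 strongest members matched in every replicate had signals from 8656 to 11144 and ranked between 12 and 60 in each replicate. At mRpS23–CenG1A the summit was 391 bp upstream of mRpS23 and nearer to CenG1A, a GTPase-activating protein gene. At eIF4EHP–CG18428 it was 229 bp upstream of eIF4EHP, a cap-binding repressor of translation. Tcs5–CHMP2B is printed above. Where the start sites were closest the summit stood outside the pair. It was 75 bp inside Chro, the gene of the chromodomain protein Chromator, at Chro–Ssl1 (spacing 105 bp), 82 bp inside CG11309 at CG11309–CG7632 (39 bp) and 95 bp inside CG9147 at Fbw5–CG9147 (44 bp). The member at Mef2–Pal1, by the gene of the muscle factor MEF2, was of another sort: it lay in an intron of Pal1, 356 bp inside that gene and 173 bp from the start of another gene, Pdrg1. Only 3 of the 844 members were nearer to the 5'-most TSS of a coding gene outside their pair.

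Members recurred in the replicates about as often as other peaks. A replicate matched a member when one of its own 9459 strongest summits lay within 100 bp. Of the 844 members 543 (64.3%) were matched in all 3 replicates, against 62.0% of all IDR summits and 60.6% of those at other coding promoters. A further 195 were matched in 2 replicates, 95 in 1 and 11 in none. Replicate 1 matched 90.3% of the members, replicate 2 matched 83.3% and replicate 3 matched 76.9%. The share matched in all 3 is close to the background, and it is no independent check, since the IDR list was made from the same replicates. Among the 650 members with a summit within 100 bp in the full list of every replicate, the median SD of the summit position over the replicates was 18.8 bp. The strongest members matched in no replicate were weak: NSD–BOD1 had a signal of 332.3, CG9154–Kr-h2 322.6 and CG6051–Men-b 275.6.

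A summit was found at 745 of the 2294 pairs (32.5%), and replicate 1 stood apart. Scored in the replicates' own 9459 strongest peaks, the pairs with a summit were 48.3% in replicate 1 and, lower, 33.5% and 30.6% in the other replicates (37.5% ± 9.49, SD, n = 3). Of all pairs, 570 had a summit in every replicate and 1101 in none, while 305 had one in replicate 1 alone, 45 in replicate 2 alone and 27 in replicate 3 alone. Without replicate 1 the mean was 32.1%. Of the 1549 pairs with no IDR summit, 223 had one in the authors' longer pooled list.

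Genes in divergent pairs had a summit at their own start site more often than other coding genes. Over equal windows of 500 bp to each side of the 5'-most TSS, 1402 of the 4648 pair genes (30.2%) and 1369 of the 9297 other coding genes (14.7%) had an IDR summit, where 19.9% of all coding genes had one. In the replicates the share of pair genes was 45.4%, 30.9% and 28.2%, and that of other genes was 17.6%, 15.1% and 14.4%. Pair genes were higher in 3 of 3 replicates and the groups did not overlap, with a difference of 19.2 percentage points ± 7.53 (SD, n = 3; two-sided exact permutation test over replicates, p = 0.25). That is the smallest p that 3 replicates allow, so this test could not pass 0.05 in any comparison here. Without replicate 1 the mean difference was 14.8 points. The window of a pair gene often holds the partner's start site too, so 1 summit can count for both genes: 671 of the 844 members (79.5%) lay within 500 bp of both start sites.

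Most pairs with a member had a single one. Each member was assigned to its nearest pair, which gave 734 pairs, and of these 628 had 1 summit, 102 had 2 and 4 had 3. The pairs with 3 were l(1)G0320–RpS28b, Smg5–Ance, CG32767–CG15465/rg and RpS6–bys, 3 of them on the X chromosome, and their start sites were 549 to 991 bp apart. At l(1)G0320–RpS28b the summits were 31 bp and 589 bp upstream of RpS28b, a small-subunit ribosomal protein gene, and 80 bp upstream of l(1)G0320, which is 793 bp from RpS28b. The last was the strongest, with a signal of 2248 against 681.7 and 303.5.

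Few members depended on the edges of the rule. Between 450 and 500 bp from the nearest start site of a pair there were 7 members, and between 500 and 550 bp, just outside, 11 summits. Of the 40 pairs spaced over 950 bp 12 had a summit, as had 12 of the 38 pairs that were too wide for the rule by up to 50 bp.

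The share of pairs with a summit changed with the distance between the start sites. Of the 658 pairs at most 200 bp apart, 138 (20.97%) had a summit, of the 823 pairs over 200 and up to 400 bp apart 329 (40.0%), and of the 813 wider pairs 278 (34.2%). Each class of spacing or distance is named here by its bounds and includes the upper one. The share at 200 to 400 bp was 59.9%, 41.6% and 37.1% in the replicates, and that at no more than 200 bp was 34.8%, 22.8% and 20.1%. Within each replicate the pairs of 200 to 400 bp were higher, by 25.1, 18.8 and 17.0 percentage points (20.3 ± 4.26, SD, n = 3; two-sided exact permutation test, p = 0.25, the smallest possible). The searched stretch is the spacing plus 500 bp to each side and was longer for wider pairs, and its part in these shares was not tested. The pairs at most 200 bp apart include copies of the histone gene repeat on 2L (His2B–His2A and His4–His3), each counted as a separate pair. None of these histone pairs had a summit in the IDR list, in any replicate or in the pooled list. Their part in these shares was not tested.

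In finer classes the lowest share was 19.1%, in the 309 pairs 100 to 200 bp apart, with 32.7%, 20.1% and 18.8% in the replicates. Most of the histone pairs are in this class. The 349 pairs no more than 100 bp apart had 22.6%. The highest share was 43.2%, in the 354 pairs 300 to 400 bp apart, with 60.7%, 44.6% and 39.0% in the replicates. The largest step was from the class 100 to 200 bp up to the class 200 to 300 bp, by 26.6, 19.2 and 16.8 percentage points in the replicates. From 200 to 300 bp to 300 to 400 bp the share was higher by 1.46, 5.4004 and 3.38 points. From there to 400 to 500 bp the step was -8.46, -8.27 and -5.35 points, and from the closest class to 100 to 200 bp it was -3.99, -5.15 and -2.43 points. With the histone pairs counted, these smaller steps had one direction in all 3 replicates. So had that from 400 to 500 bp to 500 to 750 bp, while the step to the widest class did not. No test was made of single steps. The histone pairs lower the share of the class 100 to 200 bp, and the steps to and from it were not scored without them. Whether the small step down into it from the closest class keeps its direction without them was not tested.

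**Figure D1:**
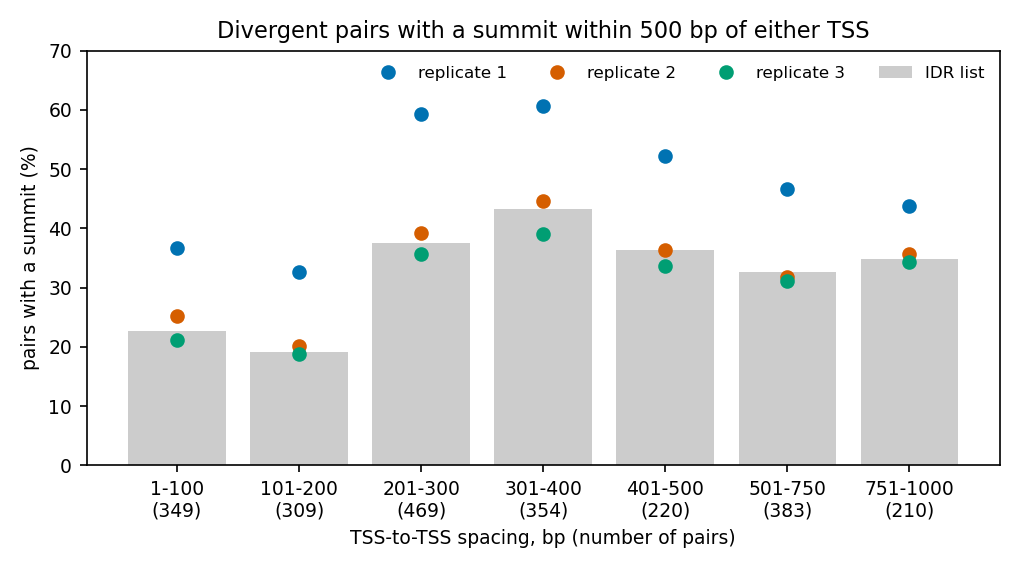
Share of divergent pairs with a summit (y axis, percent) by the distance between their start sites (x axis, bp, with the number of pairs). Grey bars are the IDR list and points are the 3 replicates, each cut to its 9459 strongest peaks. Bars stand at 19.1% to 22.6% up to 200 bp and at 32.6% to 43.2% beyond it, and replicate 1 is highest in every class.

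Most members lay between the start sites. Of the 844, 605 (71.7%) were between the TSSs, 112 were on the side of the minus-strand gene and 127 on that of the plus-strand gene. In the replicates the share between was 74.3%, 66.5% and 75.3% (72.02% ± 4.82, SD, n = 3). No side was favoured strongly, as 390 members were nearer the minus-strand TSS and 454 nearer the plus-strand TSS. By annotation 579 summits were intergenic, 170 were in a 5' UTR and 77 in an intron, while coding sequence held 3. Lying upstream of the nearest start site was no more frequent than elsewhere, as 71.4% of the members and 74.8% of the summits at other coding promoters did so. Of the 239 members outside their pair, 168 were in a 5' UTR and 69 in an intron. The peak itself spanned both start sites in 415 members (49.2%).

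Where the summit stood depended on the spacing. In pairs 200 to 300 bp apart 159 of 188 members (84.6%) lay between the start sites, and 124 of those 159 (78.0%) lay in the central part, the middle one when the interval is divided into 3 equal lengths. The central share was 68.3%, 63.8% and 69.9% in the replicates. In wider pairs it fell with spacing, to 61.2% at 300 to 400 bp, 45.0% at 400 to 500 bp, 39.4% at 500 to 750 bp and 21.5% at 750 to 1000 bp. The replicate means over the same classes were 67.3% ± 3.19, 57.6% ± 1.501, 44.7% ± 3.61, 38.1% ± 4.17 and 26.8% ± 4.45 (SD, n = 3). Closer pairs were lower too, with 15.4% of 13 summits at no more than 100 bp and 34.4% of 32 at 100 to 200 bp. Their replicate means were 30.0% ± 8.23 and 31.4% ± 10.9 (SD, n = 3). In pairs 200 to 300 bp apart the summit was therefore near the centre, 102 bp from the nearer start site in the median, and in the widest class it was near one end, at 145 bp.

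**Figure D2:**
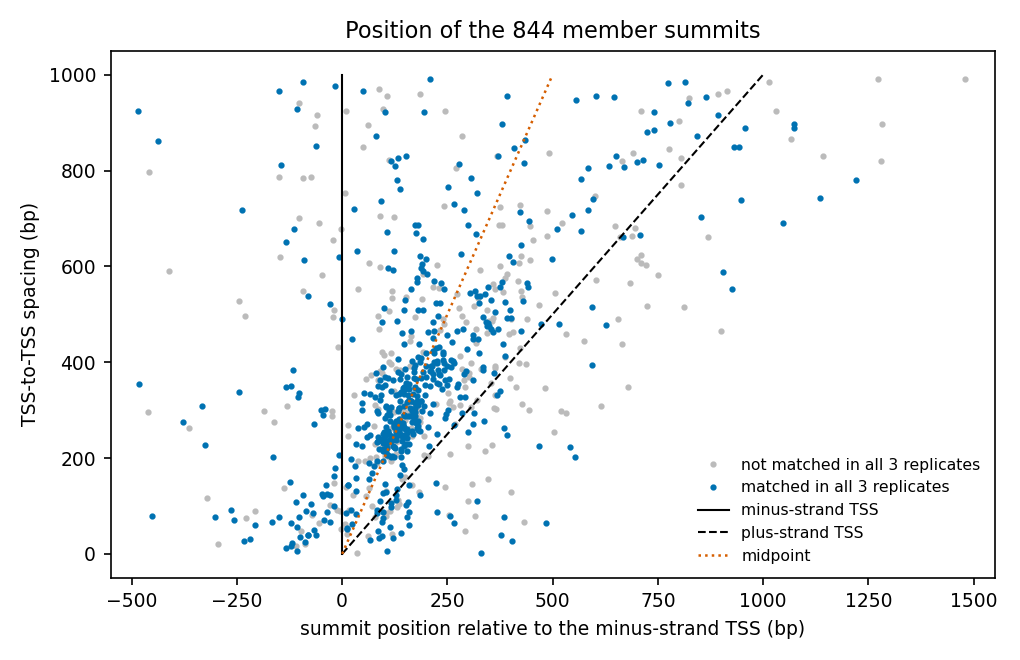
Position of each of the 844 members relative to the minus-strand TSS of its pair (x axis, bp, the minus-strand gene lying to the left of 0) against the spacing of the pair (y axis, bp). Blue points were matched in all 3 replicates and grey points were not, and lines mark both start sites and the midpoint. Points gather along the midpoint at 200 to 400 bp, leave the interval in the closest pairs and follow the start sites in the widest ones.

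In pairs over 400 bp apart, most summits between the start sites were about 100 to 250 bp from the nearer one. Members outside the interval of such pairs are not counted here. Among the 254 summits between start sites over 400 bp apart, 65 were 100 to 149 bp from the nearer TSS, 64 were 150 to 199 bp and 47 were 200 to 249 bp from it, against 18 within 49 bp and 30 at 50 to 99 bp. In the replicates the class of 100 to 149 bp held 27.6%, 26.6% and 25.6% of such summits, and the first class of 0 to 49 bp held 9.02%, 4.80% and 8.40%. All 3 replicates had more summits in each of the 3 classes from 100 to 249 bp than in either class nearer to the TSS. Of the 254 summits, 80 were in pairs 400 to 500 bp apart, where the nearer start site is never over 250 bp away. The fall beyond 250 bp is thus partly fixed by the spacing. At other coding promoters the median distance was 185 bp, against 116.5 bp at members, and 14.2% of summits lay within 50 bp of a start site, against 17.9% of the members. These medians depend on the second start site, which can only bring the nearest one closer.

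**Figure D3:**
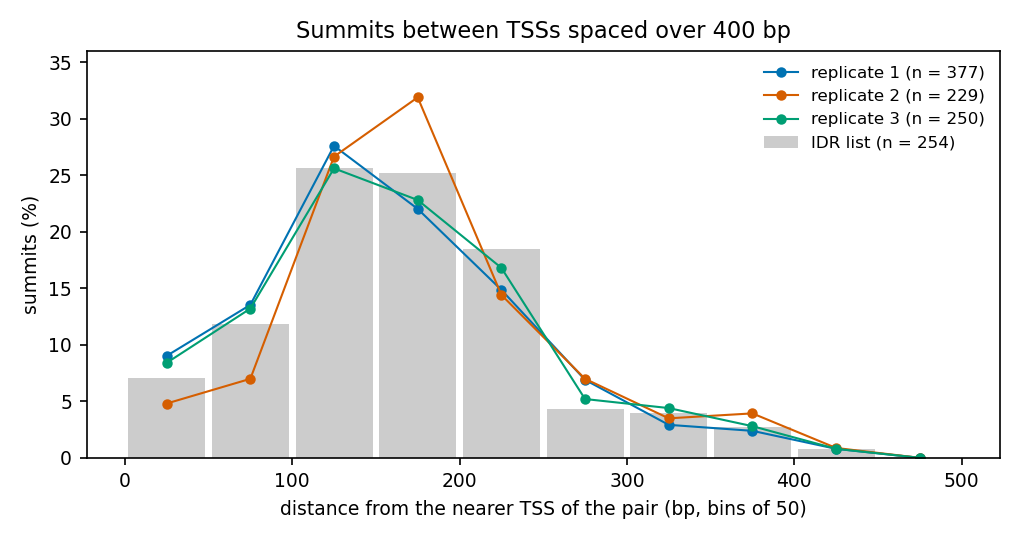
Distance of summits from the nearer start site (x axis, bp, in bins of 50 bp) for summits between start sites more than 400 bp apart, as a percentage of such summits in each list (y axis). Grey bars are the 254 summits of the IDR list and lines are the 3 replicates. All lists are highest from 100 to 199 bp and low next to the TSS.

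In the closest pairs the summit mostly stood inside one of the genes. In pairs no more than 100 bp apart, 73 of 86 members lay outside the interval, 51 of these in a 5' UTR and 22 in an intron. The share between the start sites was 21.1%, 17.9% and 14.1% in the replicates. The median distance from the nearer TSS was 78.5 bp (53, 87 and 87 bp in the replicates). Pairs 100 to 200 bp apart were intermediate, with 49.2% of 65 members between the start sites and a median distance of 43 bp. The interval of the closest pairs is at most 100 bp, while the searched stretch adds 500 bp to each side. A low share between their start sites is thus partly set by the rule. In wider pairs the interval is a larger part of that stretch, and its part in the share between was not tested.

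Members were stronger than summits at other coding promoters in each replicate. Their median signal in the IDR list was 780.8 (range 238.4 to 19140), against 559.4 at other coding promoters and 520.5 over all 9459. As a percentile rank within the list, the median member was at 66.9 and the median other coding promoter summit at 53.6. In the replicates the member median was at 63.7, 58.6 and 72.05 and the other at 50.9, 50.4 and 55.8, so the difference was 12.7, 8.16 and 16.3 percentile points (12.4 ± 4.08, SD, n = 3; two-sided exact permutation test, p = 0.25, the smallest possible). The strongest 10% of the list (946 peaks) held 18.4% of the members, 15.0% of the summits at other coding promoters and 8.04% of those at no coding promoter. The difference in rank did not hold among the stronger 50% of the peaks of each list, where it was -0.0987 points.

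Signal also differed by spacing and by distance. The median signal was 1124 in pairs 200 to 300 bp apart and 913.7 at 300 to 400 bp, and it was lower in wide pairs, 558.2 at 500 to 750 bp and 523.7 at 750 to 1000 bp. Pairs up to 100 bp apart had 837.1. By distance, members 100 to 200 bp from the nearer start site had the highest median percentile, 74.9, 68.9 and 79.4 in the replicates (74.4 ± 5.26, SD, n = 3). Those within 50 bp had 40.5, 45.1 and 57.6 (47.8 ± 8.87), lower in every replicate.

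GC content fell at members, as it did at summits away from coding promoters. Within 50 bp of the summit it averaged 31.5%, against 44.3% in windows of the same length centred 300 bp to each side. The difference was -12.5, -12.01 and -13.3 percentage points in the replicates (mean -12.6 ± 0.666, SD, n = 3; two-sided exact permutation test, p = 0.25). At other coding promoters it was -7.58, -7.67 and -8.06 points, a smaller drop in each replicate. The difference between both classes was -4.83 points ± 0.461 (SD, n = 3; two-sided exact permutation test, p = 0.25). With flanks at 200 bp it was -1.58 points. The 7204 summits at no coding promoter were close to the members, with mean GC contents in 21-bp windows of 43.8% at 300 bp to the left and 31.8% at the summit, where members had 44.8% and 31.6%. GC content was lower at the summit than in the flanks for 682 members (80.8%), 70.4% of the summits at other coding promoters and 79.9% of all IDR summits.

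The drop was not even over the members. It was -15.1 points ± 0.724 for summits between the start sites and -6.43 ± 1.62 for those outside them. By distance it was largest 100 to 200 bp from the nearer start site, -17.3 ± 0.813, and smallest within 50 bp, -4.99 ± 0.543. The stronger 50% of the members had -17.6 ± 0.609 and the weaker 50% -7.60 ± 0.853 (SD, n = 3, in each case). In each of these contrasts the replicate ranges did not overlap. An unbroken run of at least 10 bases of A and T, as capitals mark in the sequences printed above, lay within 50 bp of 64.9% of the members, 26.6% of their flanks, 53.5% of the summits at other coding promoters and 56.9% of all IDR summits. The replicates had 63.4%, 63.4% and 67.4% for members and 52.8%, 53.3% and 53.7% for other coding promoters.

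Pairs without a summit also had a GC-poor centre, though a shallower one. At the midpoint, mean GC content in 21-bp windows was 29.8% over the pairs with a summit and 34.6% over those without, and a run of A and T was present within 50 bp of the midpoint of 68.9% and 53.7% of them. Pairs without a summit were more often at most 200 bp apart, 33.6% of them against 18.5% of those with one. They include the repeated histone pairs. Between the start sites themselves, pairs with and without a summit had median GC contents of 34.4% and 33.8% at 200 to 300 bp, 31.8% and 34.0% at 300 to 400 bp and 32.8% and 32.8% at 400 to 500 bp. At 500 to 750 bp they had 33.7% and 35.1% and at 750 to 1000 bp 35.1% and 37.0%. The difference was larger at 100 to 200 bp, 37.8% and 41.9%, the class in which copies of the histone pairs count among those without a summit. These are values of the IDR list alone and were not tested.

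**Figure D4:**
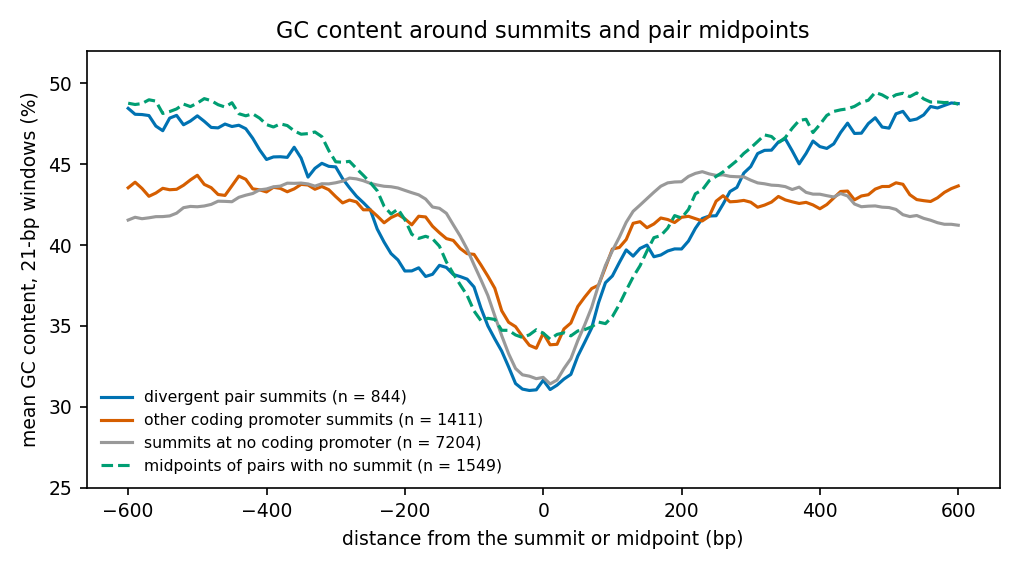
Mean GC content in 21-bp windows (y axis, percent) by distance from the summit or the pair midpoint (x axis, bp, plus strand left to right). Lines are the 844 members, the 1411 summits at other coding promoters, the 7204 summits at no coding promoter and the midpoints of the 1549 pairs with no summit. Members fall from 48.4% at 600 bp to the left to 31.6% at the summit, and midpoints without a summit have a broader and shallower trough at 34.6%.

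Short words known from promoters were scored on both strands within 50 bp of the summit. The TATA-box word TATAAA was in 27.8% of the member windows, 10.5% of their flanks and 23.0% of the windows at other coding promoters, and the replicates had 28.3%, 26.1% and 26.3% against 21.9%, 22.1% and 23.3%. It was in 25.1% of the windows of all IDR summits and in 24.0% of those at the midpoints of all pairs. The run AAAAAA was at 28.2% of members and 28.7% of other coding promoters, a difference no larger than that between replicates. The guanine-rich word GRGG (R is A or G), known for Kipferl in the ovary, was at 27.3% of members, 49.2% of their flanks and 30.3% of other coding promoters, with 27.6%, 29.1% and 27.5% of members and 31.0%, 32.0% and 32.0% of the others in the replicates. Over all IDR summits AAAAAA was in 27.8% of the windows and GRGG in 29.8%. Such words follow base composition, so the values describe the windows and name no bound site.

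Words of the factors known from paired genes were less frequent at members than at the midpoints of pairs without a summit. They were more frequent at members than over all IDR summits. TATCGATA, the element read by DREF, was in 26 of 844 windows (3.08%), in 1.54% of the flanks, in 2.06% at other coding promoters and in 0.687% over all IDR summits. At midpoints of pairs without a summit it was in 5.62%, at those of pairs with one in 2.82%, and over all pair midpoints in 4.71%. The replicates had it in 5.13%, 3.66% and 2.85% of member windows. The shorter CGATA was in 18.7% of member windows, 17.8% at other coding promoters and 12.1% over all IDR summits. It was in 26.0% of the midpoints without a summit and 17.9% of those with one. The replicates had CGATA in 23.9%, 17.7% and 18.5% of member windows. GGTCACAC, the word of M1BP, was in 13 member windows (1.54%) and in 1.84% of flanks. At other coding promoters it was in 0.921%, and over all IDR summits in 0.497%. Midpoints had it in 3.49% of the pairs without a summit and in 1.21% of those with one. Pairs without a summit were more often close and include the repeated histone pairs. The part of spacing and of the histone copies in these shares was not tested. In replicates 1, 2 and 3 GGTCACAC was in 2.53%, 1.72% and 1.68% of member windows. The strongest members with these words were at ribosomal protein genes, RpS25–CG4820 (signal 1526) for the DREF element and Ripalpha–RpL7 (1971) for that of M1BP.

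The remaining words were at 0.474% to 13.9% of members. For each word the share at members is given first and that at other coding promoters second. The initiator word TCAGTT was at 6.04% and 6.73%, the GAGA factor word GAGAG at 7.70% and 9.57%, and GCCAT, read by the Polycomb recruiter Pho, at 13.9% and 13.7%. The E-box word CAGCTG was at 4.15% and 3.54%, while CACGTG, another E-box, was at 0.474% and 1.13%. The Zelda word CAGGTA was at 1.18% and 1.35%. For TCAGTT the replicates had 5.29%, 5.95% and 5.83% of members and, higher, 6.88%, 6.61% and 6.44% of other coding promoters, and these ranges did not overlap. For GAGAG they had 7.11%, 9.15% and 7.77% of members and 9.38%, 11.3% and 9.07% of the others, lower at members within each replicate although the ranges overlapped. For CACGTG they had 0.948%, 0.572% and 0.777% of members and 1.07%, 1.01% and 1.24% of the others, which did not overlap but rest on 12, 5 and 6 member windows. Over all IDR summits the shares were 6.72% for TCAGTT, 8.77% for GAGAG and 12.8% for GCCAT. They were 2.74% for CAGCTG, 0.571% for CACGTG and 1.71% for CAGGTA. For CACGTG the members of the IDR list (0.474%) were nearer to that share than the other coding promoters (1.13%). The differences between classes in these words were not tested.

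Among 14 lists of genes, pairs with a gene of the cytoplasmic ribosome had a summit most often. Of 52 such pairs 44 (84.6%) had one, beside 32.5% of all pairs, and the share was 96.2%, 88.5% and 82.7% in the replicates (89.1% ± 6.75, SD, n = 3). The strongest was RpL34b–CG8132, which reached a signal of 3176 and ranked 288, 546 and 456 in the replicates, so these summits were frequent rather than strong: their median percentile was 65.1 ± 5.98, against 64.8 ± 6.801 over all members. Ribosomal protein genes outside divergent pairs had a summit in 22 of 34 cases (64.7%). The lists were drawn up with earlier results of these data known, and ribosomal protein genes had already stood out in them, so this count is no independent evidence.

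Of the 8 pairs of this list with no IDR summit, chosen for naming after their values were seen, 6 had a summit in at least 1 replicate, among them RpL9–Nup154, RpL5–CG17490, Sgf29–RpL29, RpS19b–CG5854 and Dhdds–RpS14a. The other two, Lsm10–RpS15Ab and RpS28a–Axn, had none in any replicate. Several of these genes have a close relative elsewhere in the genome (RpS15Aa, RpS19a and RpS28b for RpS15Ab, RpS19b and RpS28a), and each of those relatives was in a pair with a summit. How reads that fit more than 1 copy were placed is not given in the sources used here.

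Summits at ribosomal protein pairs differed from the members as a whole in place and in sequence. The summit was nearer the ribosomal protein gene than its partner in 47 of 60 members, and in 74.3%, 81.2% and 76.9% of them in the replicates. It was a median of 37 bp upstream of the ribosomal protein gene and 295.5 bp upstream of the partner, with medians of 77, 3 and 38.5 bp for the ribosomal protein gene in the replicates. Of the 60, 22 lay downstream of its start site. GC content at these summits was 39.5%, close to that of the flanks, 41.1%. The difference was -1.92, -1.70 and -0.819 points in the replicates (-1.48 ± 0.584, SD, n = 3), where all members had -12.6 ± 0.666, and the replicate ranges did not overlap. All members within 50 bp of a start site had like GC content at the summit, 39.3% ± 0.256, against 39.7% ± 1.13 at ribosomal protein pairs (SD, n = 3). Their difference from the flanks, -4.99 ± 0.543 points, was larger in each replicate than that of ribosomal protein pairs. The part of distance from the start site was not tested. GC content was lower at the summit than in the flanks for 56.7% of the ribosomal protein members, and at the strongest, RpL34b–CG8132, it was 28.7% against 46.04%. Other members had more GC at the summit. At RpS27–Nup37 the summit was 13 bp upstream of RpS27, with 48.5% GC against 35.6% in the flanks. At Ripalpha–RpL7 it was 36 bp inside RpL7, with 57.4% against 39.1%. The pair of RpL13 and Dref, the gene of DREF itself, named here after its value was seen, had a summit 51 bp upstream of RpL13 and 33 bp upstream of Dref (signal 1545).

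Mitochondrial ribosomal protein genes gave another picture. Of 58 pairs 26 (44.8%) had a summit, with 56.9%, 43.1% and 43.1% in the replicates, and the share outside pairs was 1 of 18 genes, against 25 of 57 in them. Their GC drop was -18.0 points ± 1.05, and it was larger than that of the cytoplasmic list in each replicate. The summit was nearer the mitochondrial ribosomal protein gene in 13 of 27 members of the IDR list (48.1%), and in 36.4%, 44.4% and 30.8% of those of the replicates, so the partner was nearer more often in each replicate. Their strongest member was mRpL41–CG8079, described above.

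The remaining lists of general cell functions had few pairs each, and all but the mitochondrial import list had shares from 8.33% to 37.0% in the IDR list, beside 32.5% of all pairs. Pairs with genes of RNA polymerases and general transcription factors had a summit in 17 of 53 cases (32.1%), led by CG10584–Polr3E (signal 4243), and those of the respiratory chain and ATP synthase in 12 of 44 (27.3%), led by ND-51–CG13994 (1344), a complex I subunit gene. Translation factors had 10 of 27 (37.0%), led by Ugalt–eIF2Bbeta, tRNA synthetases 8 of 24 (33.3%), led by Hem–IleRS (2814), and the proteasome 7 of 22 (31.8%), led by l(2)37Bb–Rpn3 (1354). Nuclear pore genes had 4 of 18 (22.2%), led by RpS27–Nup37 (2275), and genes of the vacuolar ATPase 1 of 12, at Vha55–Snx3 (383.6). The vacuolar ATPase share was higher in every replicate than in the IDR list, at 50%, 16.7% and 16.7%. Of the 4 pairs with a mitochondrial import gene of the TIM or TOM complexes 3 had a summit (75%, with 75%, 75% and 50% in the replicates), the strongest at CG33199/CG8229–Tom7 (2151).

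Pairs with receptor, cuticle or gut protease genes rarely had a summit. Of 25 pairs with a taste, smell or ionotropic receptor or an odorant binding protein 1 had a summit (4%; 12%, 4% and 8% in the replicates). This was Gr97a–CG5521, where it lay 129 bp inside CG5521 and 574 bp from Gr97a, with a signal of only 274.4. None of the 8 pairs with a cuticle protein gene and none of the 7 with a serine protease gene of the gut had one, in the IDR list or in any replicate. Detoxifying enzymes had 3 of 18 (16.7%), led by GstE10–GstE2 (960.2). Their share was 27.8%, 22.2% and 33.3% in the replicates, where all pairs had 48.3%, 33.5% and 30.6%, so it was lower in replicates 1 and 2 and higher in replicate 3. Where both genes of a pair were in a list, 3 of 28 pairs had a summit: GstE10–GstE2, RpL28–eIF1 and RpS27–Nup37. Over all 14 lists 134 of 362 pairs (37.0%) had a summit, against 611 of the 1932 pairs with no listed gene (31.6%), so most members were at genes of no list.

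**Figure D5:**
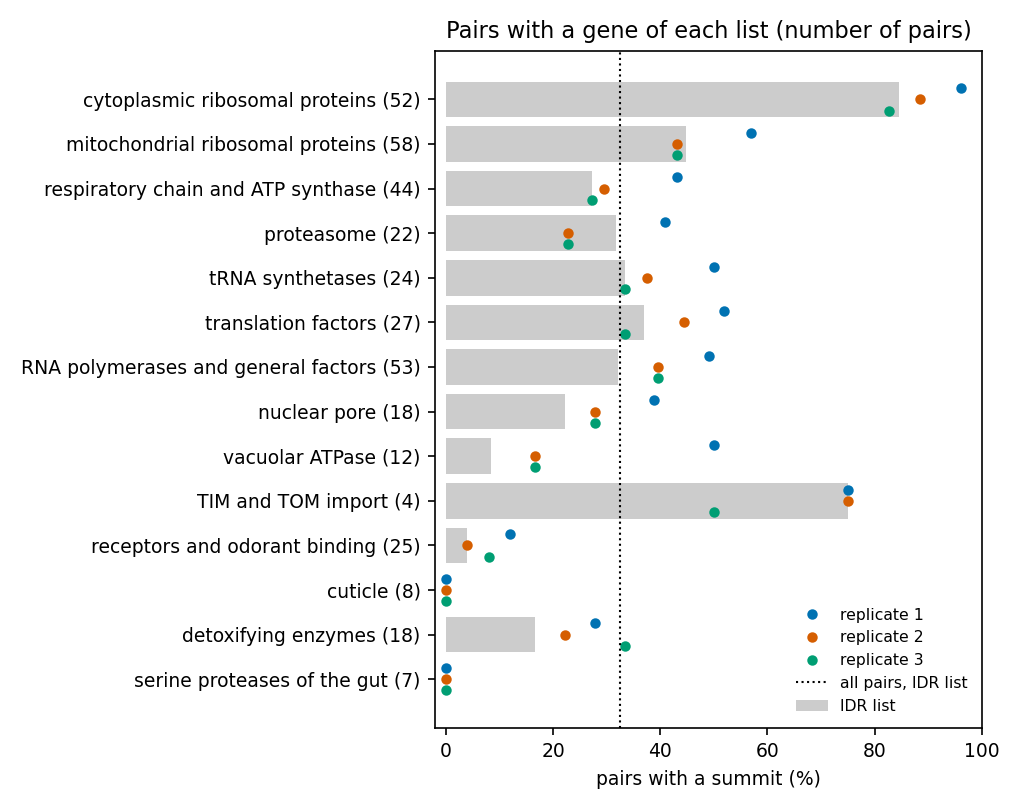
Share of divergent pairs with a summit (x axis, percent) among pairs that hold a gene of each list (y axis, with the number of pairs). Bars are the IDR list, points the 3 replicates, and the dotted line all 2294 pairs at 32.5%. The cytoplasmic ribosomal protein list stands at 84.6%, with its replicates from 82.7% to 96.2%, and the cuticle and gut protease lists stand at 0.

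Pairs with a summit were found on every large chromosome arm. The share was 42.2% on 3L, 33.2% on 3R, 30.3% on 2L, 28.5% on X and 27.9% on 2R, and none of the 8 pairs of chromosome 4 had one. In the replicates 3L had 52.1%, 42.6% and 36.9%. It was the highest arm in replicates 2 and 3, while in replicate 1 it was behind 3R, at 52.8%. The gene of the tagged protein is itself in a divergent pair, Rfk–kipf on 3R, with start sites 561 bp apart, Rfk being the gene of riboflavin kinase. No summit lay within 500 bp of either start site in the IDR list, in the strongest peaks of any replicate or in the pooled list.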

How the data were processed

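The deposited lists are narrowPeak files on dm6, per the labels. Each replicate and the pooled replicates have 30000 peaks, and 9459 pooled peaks form the IDR list. The deposited signal, a score of the authors, served to order peaks inside one list. A summit is the peak's start plus the offset the authors deposited. Which aligner and peak caller made the lists is not given in the sources used here. Read depth is unknown, so no counting error can be given. No control library was analysed here, and the part of open chromatin in these peaks was not tested.

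Members, gene lists and tests were chosen with earlier results of these data known. Start sites were those of Ensembl release 115 (BDGP 6.54), and sequence came from RefSeq. Gene pairs that share both start sites were counted once. Each replicate was cut to its 9459 strongest peaks, and differences were tested by two-sided exact permutation (sign flips) over the 3 replicates, which the labels call biological. Python 3.11.15, numpy 2.4.6, scipy 1.17.1 and matplotlib 3.10.9 were used, and pairing and scoring were tested on simulated data. Lists followed symbol patterns, from which Prosap, a synaptic scaffold gene, was dropped.

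Named pairs were the 12 strongest members matched in all replicates, the strongest member of each list, spacing class and word, pairs with both genes in a list, pairs with most summits, the strongest unmatched members, and the pair of kipf. Alternatives covered spacing, window, start sites, stronger peaks, match distance, GC windows and each replicate left out. A few of the pairs so chosen are not reported here.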

Additional observations from a re-analysis of the deposited data

How the results depend on the processing

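With 10 results under 15 other settings, 71 of 83 values stayed on the same side of every threshold or within the spread between replicates. For results with a permutation test this count is no evidence of stability, because their p could not pass the threshold under any setting. Values counted as unchanged could still differ in size. The GC difference between the classes was -1.58 points with flanks at 200 bp, against -4.83. The share of pairs with a summit was 23.5% among the stronger 50% of the peaks, against 32.5%. Among the stronger 50% of the peaks of each list there were 549 members, of which 76.9% lay between the start sites and 85.4% were matched in all 3 replicates, 76.9% of the pairs with a cytoplasmic ribosomal protein gene had a summit, and the difference in signal percentile was -0.0987, a setting that narrows the range of ranks by its construction. The share matched in all 3 replicates was also 67.9% with pairs spaced at most 500 bp, 69.0% with the strongest summit of each interval, 53.4% and 70.9% with matches within 50 and 200 bp, and 77.0% against all deposited peaks. Without 1 replicate it was 66.7% to 76.7%, fewer replicates being easier to match. Leaving out each replicate gave 14.8 to 21.8 points for the difference in the share of genes, 10.5 to 14.5 for signal and -5.08 to -4.62 for GC content between the classes. With flanks at 200 bp the GC drop at members was -8.22 points. The settings for the share of pairs without each replicate, the spacing difference and the ribosomal protein pairs were chosen after seeing the data. The comparisons were made within each replicate, and no further paired analysis was possible because there is 1 group of samples. The exact permutation test over 3 replicates cannot go below 0.25.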
